A study of Homo sapiens with 12 samples.

Results

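The nuclear genes for mitochondrial ribosomal proteins were followed in Hs695T, an established human melanoma cell line, after inhibition of MAPK signalling, of histone deacetylases, or of both. The genes were taken as every protein-coding gene with a named row whose symbol starts with MRPL or MRPS and a digit, with the brightest row where a gene had more than 1. This gave 73 genes among 14599 named genes (11733 protein-coding), 50 of the large subunit and 23 of the small one. MRPS18A and MRPS30 were counted with the large subunit, in which their proteins sit. MRPL12, MRPS6, MRPS18C and MRPS24 also carry such symbols in RefSeq and were not analysed here.

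Cells received vehicle (DMSO), dabrafenib at 100 nM with trametinib at 10 nM (called MAPKi), entinostat at 1 µM (HDACi), or all 3 agents (combination), and RNA was taken after 24 h. Dabrafenib inhibits mutant BRAF, trametinib inhibits MEK, and entinostat inhibits class I histone deacetylases. Each of the 4 groups had 3 arrays, all from this single cell line with no genetic change between groups. Sample titles call the arrays biological replicates and the series design calls them technical, so p-values measure only the spread between these arrays. Among markers of the melanocyte lineage, SOX10 (log2 intensity 9.96 with vehicle) and S100B (11.49) were bright, while the pigmentation genes MLANA (4.27) and TYR (3.81) were dim and PMEL (6.07) lay near the middle of all genes. The fibroblast genes DCN (2.71) and LUM (2.82) were dim, and of the leukocyte genes LYZ (5.06) was dim and CD68 (8.56) was not.

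Mitochondrial ribosomes translate the few messages that mitochondrial DNA encodes, all of them for subunits of the respiratory chain and ATP synthase. Their RNA comes from mitochondrial DNA, whereas all of their proteins are encoded in the nucleus, made in the cytosol and imported. Many of the proteins descend from bacterial ribosomal proteins and others are particular to mitochondria, and variants in several of the genes cause inherited disorders of oxidative phosphorylation.

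The median log2 intensity over the 73 genes was 8.37, 8.24 and 8.23 on the vehicle arrays, 7.43, 7.46 and 7.28 on the MAPKi arrays, 7.41, 7.47 and 7.51 on the HDACi arrays, and 6.55, 6.62 and 6.52 on the combination arrays. The vehicle arrays were highest, both single treatments lay between, the combination was lowest, and only the MAPKi and HDACi ranges overlapped. The general level of the arrays moved in the same order. The median intensity over all named genes went from 80.27 to 92.67 with vehicle, 55.14 to 60.92 with MAPKi, 72.06 to 76.62 with HDACi and 46.33 to 53.50 with the combination. How the deposited values were scaled between arrays is not given in the sources used here, and less of these RNAs in each cell cannot be told apart from less RNA per cell in general. Each change is therefore given on the deposited scale and again after quantile normalization, which gives all arrays the same distribution and so reports changes relative to the other genes. After that step the median log2 over the 73 genes was 7.65 ± 0.06 with vehicle, 7.56 ± 0.03 with MAPKi, 7.27 ± 0.04 with HDACi and 7.16 ± 0.03 with the combination (SD, n = 3).

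On the deposited scale the mitochondrial ribosomal protein genes fell almost without exception. With MAPKi 72 of 73 fell, at a median log2 change of -0.86 (range -1.62 to -0.18). With HDACi 68 fell, at a median of -0.74 (range -1.77 to -0.04), and with the combination all 73 fell, at a median of -1.62 (range -2.68 to -0.72). All changes were negative, so none of the 73 rose in any of these comparisons with vehicle. The threshold for a call was 0.05 on the p of limma's moderated test after Benjamini-Hochberg adjustment over all 14599 genes. Of all genes tested, 66.2% were lower with MAPKi (2.97% higher), 37.2% with HDACi (10.4% higher) and 74.3% with the combination (4.38% higher), and their median changes were -0.48, -0.20 and -0.72.

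After quantile normalization the HDACi and combination comparisons kept most of the lower calls and the MAPKi comparison kept few. On this scale 16 of the 73 were lower and 1 was higher with MAPKi, at a median of -0.13, where 13.9% of all genes were lower and 15.1% higher. With HDACi 50 were lower and 2 higher, at a median of -0.42, against 21.1% lower and 18.5% higher among all genes. With the combination 55 were lower and 1 higher, at a median of -0.45, against 24.2% and 22.1%. The all-gene medians on this scale were 0.01, -0.04 and -0.03. When the median of each array was subtracted instead, 48, 63 and 68 genes were lower and 1, 0 and 0 higher, at medians of -0.31, -0.53 and -0.82, so more MAPKi calls remained on that scale. Of all genes 22.6%, 26.6% and 33.0% were then lower and 26.5%, 20.7% and 37.8% higher. Bright genes were called lower more often on that scale, as given below.

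**Figure D1:**
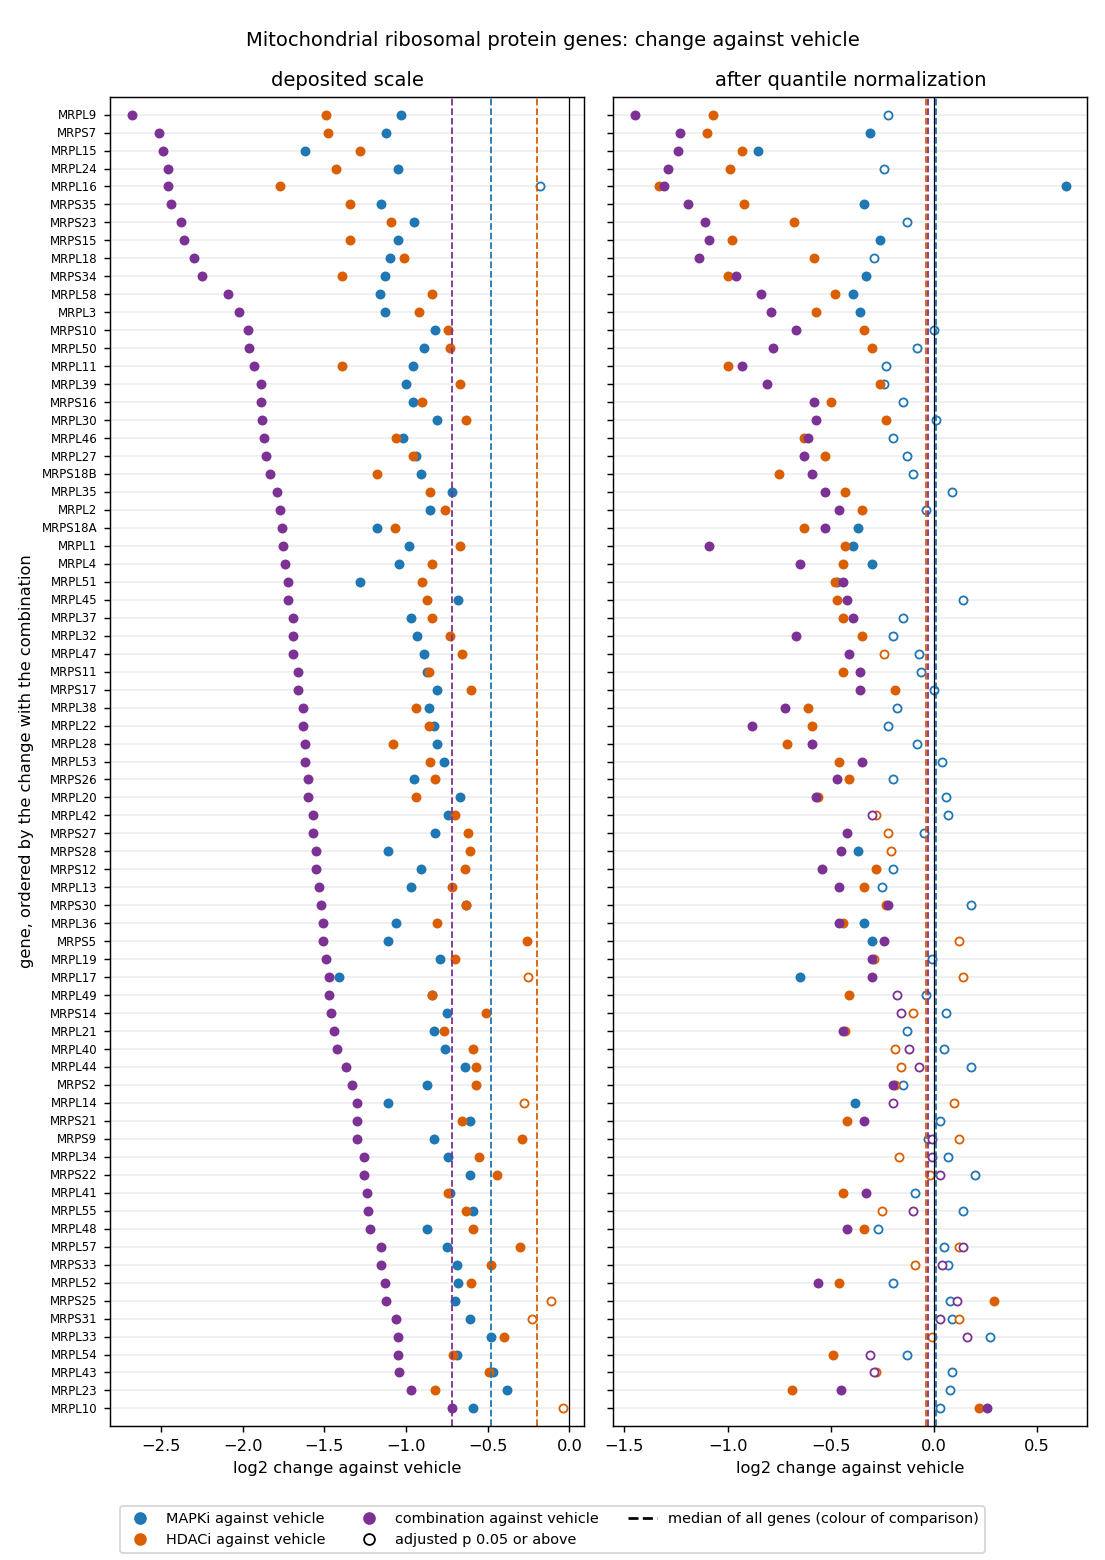
Log2 change against vehicle of each of the 73 genes (rows, ordered by their change with the combination) on the deposited scale and after quantile normalization, 3 arrays per group. Colours mark the treatment, open circles have an adjusted p of at least 0.05, and dashed lines mark the median of all genes; on the deposited scale all points lie below 0, whereas after quantile normalization the MAPKi points lie around a median of -0.13 and the HDACi points around -0.42.

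Most of the genes were bright, and bright genes moved further on the deposited scale. When all named genes were put into 10 equal bins by mean level, the 4 brightest bins held 16, 18, 20 and 9 of the 73 and the 3 dimmest held none. Against the median of all genes in its own bin, the gene was lower in 54 of 73 cases with MAPKi, 64 with HDACi and 65 with the combination, with median differences of -0.15, -0.39 and -0.42. The medians of the large and small subunit genes were -0.85 and -0.87 with MAPKi, -0.76 and -0.64 with HDACi, and -1.63 and -1.57 with the combination. After quantile normalization they were -0.13 and -0.10, -0.43 and -0.28, and -0.46 and -0.42. On that scale 37 of 50 large and 13 of 23 small subunit genes were lower with HDACi, and 38 and 17 with the combination. In the 4 brightest bins 20.1% to 25.8% of all genes were lower with MAPKi on that scale, against 21.9% of the 73. The ranges were 31.6% to 34.8% with HDACi, against 68.5%, and 35.4% to 37.9% with the combination, against 75.3%. With array medians subtracted, 532 to 731 of the 1460 genes in each of these bins were lower with MAPKi, and 48 of the 73. With HDACi the counts were 671 to 751, and 63 of the 73. With the combination they were 848 to 1028, and 68 of the 73.

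Promoter sequences of these genes are shown next as a description. RefSeq promoters of GRCh38.p14, 250 bases before to 50 after the first listed start, matched 65 of the 73 genes. Each was searched on both strands for AAGATGGC, letters recognised by the zinc finger factor YY1, for CCGGAAGT, an ETS family site of the kind bound by GABP, for GCGCATGC, the core of a nuclear respiratory factor 1 site, and for CACGTG, the E-box bound by MYC and MITF. None of these letter strings contains another. The YY1 letters stood in 19 of the 65 promoters (29.2%), against 3.03% of all 27305 promoters and 3.91% of the 15842 protein-coding ones. The ETS letters stood in 11 (16.9%, against 4.44% and 6.19%), the NRF1 letters in 5 (7.69%, against 3.27% and 4.26%) and the E-box in 5 (7.69%, against 7.43% and 8.88%). The 20 YY1 matches lay close to the start, 15 of them within 50 bases of it, 14 after the start and 16 reading in the direction of the gene. Of 13 ETS matches 12 lay before the start. A match is a description of the letters and does not show that a factor bound there. The YY1 letters also contain ATG, the letters of a start codon, and overlap of the matches with translation starts was not examined.

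The YY1 matches (capitals) are printed in windows of 30 bases, 5′ to 3′ in the direction of the gene, for 5 of the genes whose array values are given further on. The site is at chr17:75261887-75261916 (plus strand) in MRPS7, chr6:43687764-43687793 (minus strand) in MRPS18A, chr6:30617852-30617881 (plus) in MRPS18B, chr5:44808949-44808978 (plus) in MRPS30 and chr12:6493223-6493252 (minus) in MRPL51. In each of these 5 the capitals begin at base 10 to 24 counted from the start, and the lower-case bases around them differ from gene to gene. MRPS12 also has array values further on, and its match, which begins at base -212 and reads on the other strand, is not printed.
MRPS7: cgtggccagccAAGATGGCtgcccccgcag
MRPS18A: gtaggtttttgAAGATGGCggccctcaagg
MRPS18B: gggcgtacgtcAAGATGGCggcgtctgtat
MRPS30: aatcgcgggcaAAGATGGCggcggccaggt
MRPL51: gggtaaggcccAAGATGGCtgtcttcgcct

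The printed ETS matches of MRPL16 at chr11:59810767-59810796 (minus), MRPS34 at chr16:1773136-1773165 (minus) and MRPS22 at chr3:139343903-139343932 (plus) read on the other strand, within 80 bases before the start. MRPS22 has a further match that begins at base 5 after the start, and MRPL51 has a match at base -120. Both also read on the other strand and are not printed.
MRPL16: gagtgaacacaACTTCCGGccccactgagc
MRPS34: ctcttccggtgACTTCCGGccggaccgctg
MRPS22: gggcccggaagACTTCCGGccctttccgcc

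After quantile normalization the medians of genes with and without the YY1 letters were -0.18 and -0.11 for MAPKi, -0.46 and -0.41 for HDACi, and -0.56 and -0.36 for the combination. Of the 19 with the letters 16 were lower with HDACi and 18 with the combination, and of the 46 without them 28 and 30. For the 11 promoters with ETS letters the medians were -0.13, -0.53 and -0.57, against -0.12, -0.34 and -0.42 for the other 54. Of the 11, 9 were lower with HDACi and 10 with the combination, and of the other 54, 35 and 38. These are descriptions without a test, and MRPL16, MRPS34 and MRPS22, which share the ETS letters, had HDACi changes of -1.33, -1.0 and -0.02 on this scale. YY1 itself fell by 0.97 ± 0.12 with HDACi (adjusted p = 6.1e-06, quantile -0.55) and by 1.91 ± 0.12 with the combination (adjusted p = 5.2e-10, quantile -0.83), where the ± is limma's standard error. Its change with MAPKi was -0.80 on the deposited scale (adjusted p = 2.2e-05) and -0.03 after quantile normalization (adjusted p = 0.86). Whether the level of YY1 bears on the genes with its letters was not tested.

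With MAPKi the most negative changes were those of MRPL15 and MRPL17, both proteins of the large subunit with bacterial counterparts. MRPL15 had log2 intensities of 10.13, 9.97 and 9.93 with vehicle, 8.46, 8.43 and 8.29 with MAPKi, 8.73, 8.73 and 8.74 with HDACi, and 7.49, 7.42 and 7.66 with the combination. No groups overlapped, and every MAPKi array lay below every HDACi array. It fell 3.07-fold with MAPKi (-1.62 ± 0.10, adjusted p = 2.3e-09, quantile -0.85), 2.43-fold with HDACi (-1.28 ± 0.10, adjusted p = 8.2e-08, quantile -0.93) and 5.61-fold with the combination (-2.49 ± 0.10, adjusted p = 1.2e-11, quantile -1.24).

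MRPL17 was lower with MAPKi on both scales and was not called with HDACi on either. Its values were 7.99, 7.79 and 7.70 with vehicle, 6.31, 6.58 and 6.36 with MAPKi, 7.38, 7.68 and 7.67 with HDACi, and 6.34, 6.47 and 6.26 with the combination. The MAPKi and combination arrays overlapped each other and lay below all others, and every HDACi array lay below every vehicle array. The gene fell 2.65-fold with MAPKi (-1.41 ± 0.12, adjusted p = 7e-08, quantile -0.65), had a change of -0.25 ± 0.12 with HDACi (adjusted p = 0.11, quantile 0.14) and, against MAPKi, one of -0.06 ± 0.12 with the combination (adjusted p = 0.72), which after quantile normalization was 0.35 (adjusted p = 0.0091). MRPS5, a small subunit protein with a bacterial counterpart near the messenger RNA entrance, had the same order, with 9.51, 9.35 and 9.41 under vehicle, 8.41, 8.37 and 8.16 under MAPKi, 9.15, 9.11 and 9.22 under HDACi, and 7.93, 7.91 and 7.89 under the combination. It fell by 1.11 ± 0.10 with MAPKi (adjusted p = 1.2e-07, quantile -0.30) and by 0.26 ± 0.10 with HDACi (adjusted p = 0.041), the latter without passing after quantile normalization (0.12, adjusted p = 0.18).

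MRPL51 and MRPL58 were also among the genes lower with MAPKi on both scales. MRPL58 is a peptidyl-tRNA hydrolase built into the large subunit that can release stalled chains. Its values were 9.89, 9.75 and 9.82 with vehicle, 8.69, 8.72 and 8.57 with MAPKi, 8.73, 9.08 and 9.14 with HDACi, and 7.72, 7.72 and 7.76 with the combination. All MAPKi arrays lay below the lowest HDACi array, 8.73, and the combination lay a further step down. It fell by 1.16 ± 0.11 with MAPKi (adjusted p = 2.7e-07, quantile -0.39), by 0.84 ± 0.11 with HDACi (adjusted p = 1.5e-05, quantile -0.48) and by 2.09 ± 0.11 with the combination (adjusted p = 1.2e-10, quantile -0.84). MRPL51 read 8.61, 8.48 and 8.73 with vehicle, 7.40, 7.36 and 7.23 with MAPKi, 7.47, 7.73 and 7.93 with HDACi, and 6.84, 6.89 and 6.94 with the combination. After quantile normalization its changes were almost equal, -0.47, -0.48 and -0.44.

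MRPL16, a large subunit protein of bacterial descent, was the exception to MAPKi and the gene most lowered by entinostat. It read 8.59, 8.39 and 8.68 with vehicle, 8.40, 8.55 and 8.18 with MAPKi, 6.66, 6.87 and 6.83 with HDACi, and 5.97, 6.14 and 6.18 with the combination. The vehicle and MAPKi arrays overlapped, and all HDACi and combination arrays lay more than 1 log2 unit below them. Its MAPKi change of -0.18 ± 0.12 did not pass (adjusted p = 0.19), while after quantile normalization it was 0.64 higher (adjusted p = 0.00023). It fell 3.41-fold with HDACi (-1.77 ± 0.12, adjusted p = 1.7e-08, quantile -1.33), 5.52-fold with the combination (-2.46 ± 0.12, adjusted p = 4.9e-11, quantile -1.31) and 4.86-fold from MAPKi to the combination (-2.28 ± 0.12, adjusted p = 2.1e-09, quantile -1.95).

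Next after MRPL16 in the HDACi comparison came MRPL9, MRPS7 and MRPL24. MRPL9, a large subunit protein with a bacterial counterpart, read 9.19, 9.20 and 9.15 with vehicle, 8.25, 8.19 and 7.99 with MAPKi, 7.72, 7.58 and 7.75 with HDACi, and 6.34, 6.68 and 6.48 with the combination. Its 4 groups were separate, and its fall of 6.39-fold with the combination was the greatest of the 73 (-2.68 ± 0.11, adjusted p = 1.3e-11, quantile -1.45). It fell by 1.49 ± 0.11 with HDACi (adjusted p = 4.2e-08, quantile -1.07) and by 1.03 ± 0.11 with MAPKi (adjusted p = 8.1e-07), where it did not pass after quantile normalization (-0.22, adjusted p = 0.097).

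MRPS7, an RNA-binding protein of the head of the small subunit, read 9.59, 9.44 and 9.55 with vehicle, 8.41, 8.51 and 8.31 with MAPKi, 7.96, 8.06 and 8.11 with HDACi, and 7.11, 7.05 and 6.90 with the combination. Here too no groups overlapped. It fell by 1.48 ± 0.10 with HDACi (adjusted p = 1.8e-08, quantile -1.10) and 5.68-fold with the combination (-2.51 ± 0.10, adjusted p = 1.1e-11, quantile -1.23). MRPL24 read 8.92, 8.60 and 8.53 with vehicle, 7.60, 7.79 and 7.52 with MAPKi, 7.13, 7.22 and 7.42 with HDACi, and 6.34, 6.13 and 6.20 with the combination, again in 4 separate steps. It fell by 1.43 ± 0.13 with HDACi (adjusted p = 2.1e-07, quantile -0.99) and by 2.46 ± 0.13 with the combination (adjusted p = 7.1e-11, quantile -1.29). MRPS34, a small subunit protein particular to mitochondria in which variants cause a Leigh-like disease, fell by 1.39 ± 0.11 with HDACi (adjusted p = 6.5e-08, quantile -1.0). Its arrays read 9.58, 9.35 and 9.55 with vehicle, 8.31, 8.49 and 8.28 with MAPKi, 7.98, 8.23 and 8.10 with HDACi, and 7.17, 7.27 and 7.29 with the combination.

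MRPL10, which with MRPL11 forms the base of the factor-binding stalk, behaved unlike its partner. It read 6.84, 6.69 and 6.86 with vehicle, 6.23, 6.25 and 6.15 with MAPKi, 6.77, 6.81 and 6.69 with HDACi, and 5.99, 6.29 and 5.95 with the combination. HDACi arrays overlapped the vehicle arrays, and combination arrays overlapped the MAPKi arrays. The HDACi change was -0.04 ± 0.11 (adjusted p = 0.77), and after quantile normalization the gene was higher with HDACi (0.22, adjusted p = 0.032) and with the combination (0.26, adjusted p = 0.012), although on the deposited scale it fell by 0.72 ± 0.11 with the latter (adjusted p = 1.4e-05). MRPL11 read 7.57, 7.59 and 7.72 with vehicle, 6.75, 6.84 and 6.40 with MAPKi, 6.18, 6.12 and 6.42 with HDACi, and 5.76, 5.70 and 5.65 with the combination. It fell by 1.39 ± 0.12 with HDACi (adjusted p = 2.1e-07, quantile -1.0) and by 1.93 ± 0.12 with the combination (adjusted p = 5.9e-10, quantile -0.93). The difference between the responses of the partners was not tested.

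**Figure D2:**
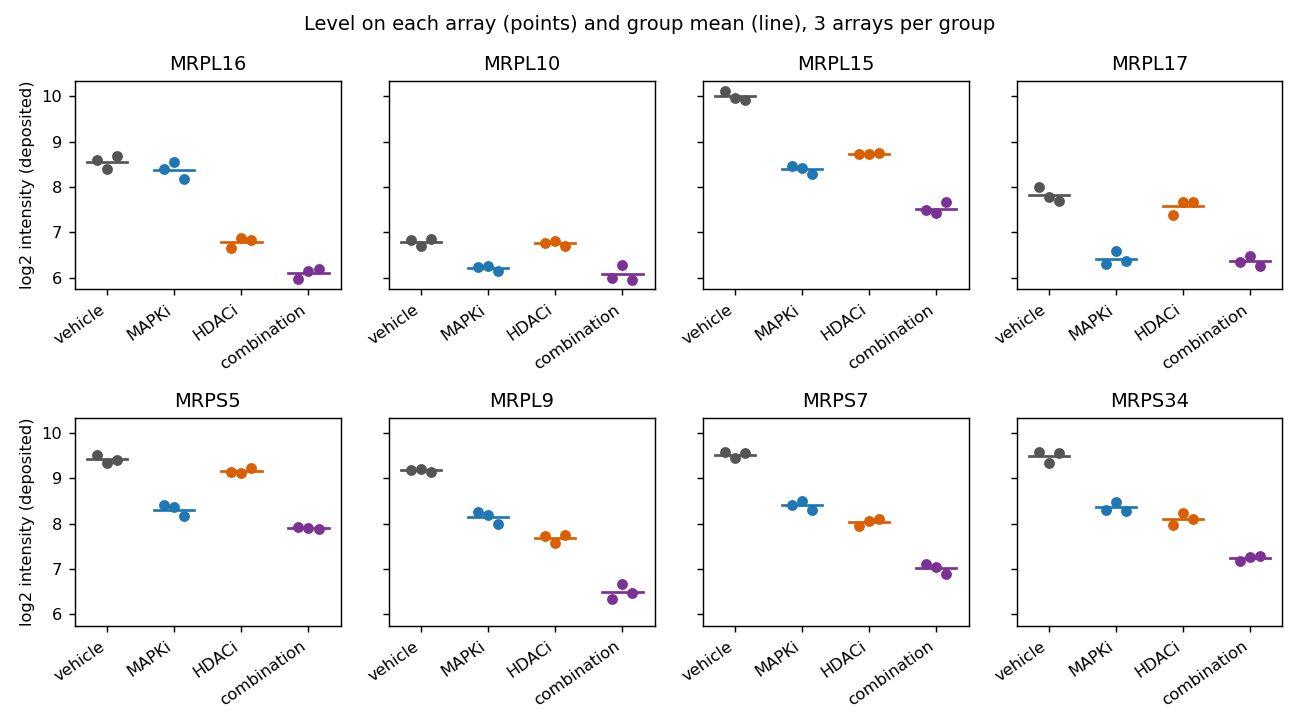
Deposited log2 intensity on each of the 12 arrays (points) and the mean of each group of 3 arrays (lines) for MRPL16, MRPL10, MRPL15, MRPL17, MRPS5, MRPL9, MRPS7 and MRPS34. In MRPL16 the MAPKi points overlap vehicle and the HDACi points drop to between 6.66 and 6.87, whereas in MRPL17 and MRPS5 the HDACi points stay well above the MAPKi points.

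Among genes of the small subunit known for their place or for disease, MRPS12, part of the decoding centre, read 7.47, 7.36 and 7.31 with vehicle, 6.46, 6.57 and 6.38 with MAPKi, 6.76, 6.69 and 6.78 with HDACi, and 5.99, 5.88 and 5.62 with the combination. Each treatment lowered it on every array, HDACi least. It fell by 1.55 ± 0.11 with the combination (adjusted p = 2.1e-09, quantile -0.54). MRPS16, whose variants cause a respiratory chain deficiency, read 9.16, 8.94 and 8.93 with vehicle, 8.13, 8.03 and 7.98 with MAPKi, 8.04, 8.09 and 8.19 with HDACi, and 7.09, 7.22 and 7.06 with the combination. Its fall with the combination was 1.89 ± 0.10 (adjusted p = 1.4e-10, quantile -0.58), and its MAPKi and HDACi arrays overlapped. MRPS22, another disease gene, fell by 1.26 ± 0.11 with the combination (adjusted p = 3.7e-08), yet its change was 0.03 after quantile normalization (adjusted p = 0.78). It read 8.31, 8.06 and 8.15 with vehicle, 7.55, 7.64 and 7.5 with MAPKi, 7.58, 7.86 and 7.75 with HDACi, and 6.93, 7.06 and 6.74 with the combination, and the ranges of the single treatments overlapped.

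The related proteins MRPS18A and MRPS18B, which descend from 1 bacterial protein, fell together. MRPS18A read 8.29, 8.08 and 8.37 with vehicle, 7.10, 7.10 and 6.99 with MAPKi, 6.98, 7.16 and 7.37 with HDACi, and 6.47, 6.51 and 6.48 with the combination. MRPS18B read 8.52, 8.38 and 8.5 with vehicle, 7.53, 7.61 and 7.52 with MAPKi, 7.07, 7.43 and 7.35 with HDACi, and 6.60, 6.80 and 6.5 with the combination. In the second gene all HDACi arrays lay below all MAPKi arrays, and in the first they overlapped. With the combination they fell by 1.76 ± 0.11 (adjusted p = 8.2e-10, quantile -0.53) and 1.83 ± 0.11 (adjusted p = 5.2e-10, quantile -0.59).

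MRPS23 stood out in the step from MAPKi to the combination, with 9.15, 9.02 and 9.04 under vehicle, 8.16, 8.23 and 7.95 under MAPKi, 7.93, 7.94 and 8.06 under HDACi, and 6.71, 6.62 and 6.74 under the combination. It fell by 1.42 ± 0.10 from MAPKi (adjusted p = 3.9e-08, quantile -0.98) and by 1.29 ± 0.10 from HDACi (adjusted p = 5.5e-08, quantile -0.44) to the combination. MRPS25 and MRPS31 were among the 5 genes that did not pass with HDACi on the deposited scale, the others being MRPL10, MRPL14 and MRPL17. MRPS25 read 8.02, 7.72 and 7.89 with vehicle, 7.22, 7.23 and 7.09 with MAPKi, 7.75, 7.78 and 7.78 with HDACi, and 6.64, 6.91 and 6.72 with the combination. Its HDACi change was -0.11 ± 0.11 (adjusted p = 0.44), and 0.29 after quantile normalization (adjusted p = 0.0041). MRPS31 read 7.37, 7.27 and 7.23 with vehicle, 6.81, 6.63 and 6.61 with MAPKi, 7.14, 7.14 and 6.89 with HDACi, and 6.33, 6.29 and 6.06 with the combination, and its HDACi change was -0.23 ± 0.11 (adjusted p = 0.10, quantile 0.12).

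In the large subunit, MRPL28, which was once described as a melanoma antigen seen by T cells, read 7.57, 7.46 and 7.41 with vehicle, 6.78, 6.68 and 6.56 with MAPKi, 6.33, 6.52 and 6.35 with HDACi, and 5.84, 6.09 and 5.65 with the combination. It fell in 4 separate steps, by 1.08 ± 0.12 with HDACi (adjusted p = 1.9e-06, quantile -0.71) and by 1.62 ± 0.12 with the combination (adjusted p = 3e-09, quantile -0.59). MRPL44, in which variants cause an infantile cardiomyopathy, fell by 1.37 ± 0.13 with the combination (adjusted p = 4.7e-08) and passed in none of the comparisons with vehicle after quantile normalization (0.18, -0.16 and -0.07). It read 8.71, 8.37 and 8.49 with vehicle, 7.85, 8.03 and 7.80 with MAPKi, 7.79, 7.89 and 8.19 with HDACi, and 7.08, 7.29 and 7.10 with the combination. MRPS30, particular to mitochondria, read 8.75, 8.59 and 8.65 with vehicle, 8.16, 7.99 and 7.94 with MAPKi, 7.86, 8.03 and 8.20 with HDACi, and 7.15, 7.14 and 7.15 with the combination. Its single-treatment arrays overlapped, at changes of -0.63 in both comparisons, and it fell by 1.52 ± 0.11 with the combination (adjusted p = 2.3e-09, quantile -0.22).

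MRPL23 and MRPL43 had the smallest changes with the combination after MRPL10. MRPL23 read 6.06, 5.71 and 5.49 with vehicle, 5.42, 5.40 and 5.31 with MAPKi, 4.92, 4.83 and 5.06 with HDACi, and 4.73, 4.76 and 4.87 with the combination. It was dim on every array and fell by 0.38 ± 0.13 with MAPKi (adjusted p = 0.016), a call that ended without vehicle replicate 1 (-0.22, adjusted p = 0.10) or MAPKi replicate 3 (-0.34, adjusted p = 0.055). MRPL43 read 6.47, 6.36 and 6.55 with vehicle, 6.13, 5.92 and 5.92 with MAPKi, 5.82, 5.97 and 6.10 with HDACi, and 5.31, 5.35 and 5.6 with the combination. It fell by 1.04 ± 0.11 with the combination (adjusted p = 4.1e-07), but did not pass after quantile normalization (-0.29, adjusted p = 0.087).

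Over the 3 comparisons with vehicle after quantile normalization, the commonest pattern was no call with MAPKi and lower calls with HDACi and the combination, found in 35 genes (47.9%, against 9.21% of all genes). Another 12 (16.4%, against 5.79%) were lower in all 3 comparisons, among them MRPL1, MRPL3, MRPL4, MRPL15, MRPL36, MRPS15 and MRPS35. MRPL17, MRPS5 and MRPS28 (4.11%, against 2.46%) were lower with MAPKi and the combination without a call for HDACi, and MRPL14 was lower with MAPKi only. The 13 genes called in none (17.8%, against 40.3%) included MRPL33, MRPL34, MRPL40, MRPL42, MRPL57, MRPS9 and MRPS14. The all-gene shares include dim genes, which were called less often, and no shares at a like level were computed for these patterns. On the deposited scale the MAPKi change was the more negative of the single treatments in 47 genes and the HDACi change in 26, whereas after quantile normalization this was so in 9 and 64. Over all genes the median changes with MAPKi and HDACi were -0.48 and -0.20 on the deposited scale, and 0.01 and -0.04 after quantile normalization. The matching counts over all genes are not given here.

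For entinostat, the change without MAPKi (HDACi against vehicle) and with it (combination against MAPKi) share no arrays. Across the 73 genes the Pearson r between them was 0.81 and the Spearman rho 0.74, both on each scale, with a median absolute difference of 0.16 (0.14 after quantile normalization). For MAPKi without and with entinostat, r was 0.57 and rho 0.55 on the deposited scale, and 0.49 and 0.51 after quantile normalization. Genes are not independent replicates, and these values describe the 12 arrays only.

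In the combination 70 of the 73 genes fell against MAPKi (all genes 40.6% lower, 8.68% higher) and 72 fell against HDACi (all genes 72.6% lower, 0.644% higher), at medians of -0.75 and -0.85. After quantile normalization 47 were lower and 2 higher against MAPKi (all genes 23.5% and 19.9%), and 16 lower and 0 higher against HDACi (all genes 11.6% and 11.4%). In the 4 brightest bins 33.9% to 36.2% of all genes were lower against MAPKi, where 64.4% of the 73 were. Against HDACi 17.7% to 21.1% of all genes in these bins were lower, where 21.9% of the 73 were. MRPL10 and MRPL17 were the 2 higher genes. Of the 50 genes lower with HDACi against vehicle and the 47 lower with the combination against MAPKi, 41 were the same (82.0% and 87.2%). Over all genes the shared calls were 67.6% and 60.7% of each list. Such shares rise with the share of genes called, here 68.5% and 64.4% of the 73 but 21.1% and 23.5% of all genes. They are therefore not a like comparison of the 73 with all genes. The 16 lower with MAPKi against vehicle and the 16 lower with the combination against HDACi had 7 in common (43.8% of each), where over all genes the shares were 49.1% and 58.6%.

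**Figure D3:**
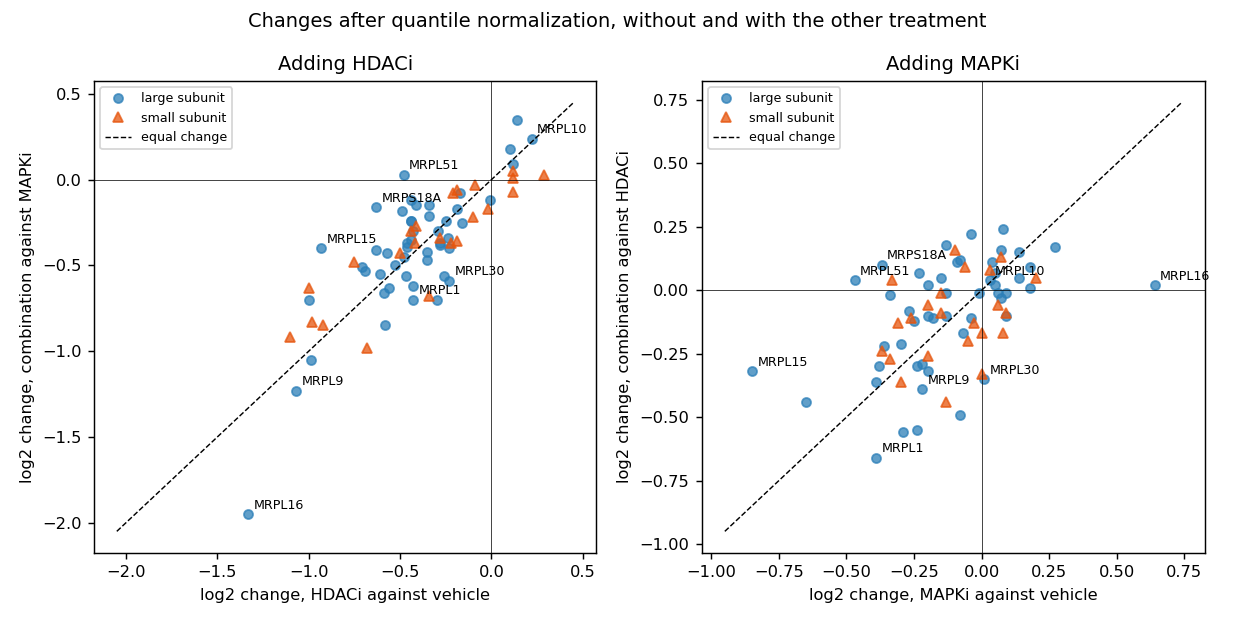
Change after quantile normalization of the 73 genes for each agent without the other treatment (horizontal axis) and with it (vertical axis), in log2 units, 3 arrays per group and no arrays shared between the axes. The entinostat points follow the diagonal (r = 0.81) and most lie below 0 on both axes, and the MAPKi points form a looser cloud (r = 0.49) around 0.

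None of the 73 genes passed the test for a departure from added log2 changes on the deposited scale with all genes in the fit and limma's standard variance. This interaction, which is the combination's change against MAPKi minus the HDACi change against vehicle, had a median of -0.00 over the 73 genes (range -0.51 to 0.50). In limma 10 of the 73 had an unadjusted p under 0.05, as did 3077 of all 14599 genes. After adjustment 4.84% of all genes were lower and 3.16% higher. The 3 smallest adjusted p values belonged to MRPS18A (0.50 ± 0.16, adjusted p = 0.075), MRPL16 (-0.51 ± 0.17, adjusted p = 0.083) and MRPL15 (0.41 ± 0.14, adjusted p = 0.10). After quantile normalization 2 were lower and 3 higher in limma, against 6.26% and 6.21% of all genes. On the deposited scale 3 genes were lower and 2 higher in the interaction when the dimmest 40% of genes were left out, and 3 and 3 with trend and robust variance. All-gene shares under these settings are not given here, so these counts cannot be set against a background.

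Other parts of the mitochondrial translation machinery moved to different degrees. Of 23 measured assembly and ribosomal RNA modification factors, 21 fell with MAPKi, 23 with HDACi and 23 with the combination, at medians of -0.75, -0.81 and -1.55. After quantile normalization 5, 15 and 15 were lower and 4, 0 and 1 higher, at medians of -0.04, -0.40 and -0.56. FASTKD2, a mitochondrial RNA-binding protein needed for large subunit assembly, fell by 1.73 ± 0.11 with HDACi (adjusted p = 9e-09, quantile -1.32) and by 2.54 ± 0.11 with the combination (adjusted p = 1.6e-11, quantile -1.64). ERAL1, a chaperone of the small subunit RNA, fell by 2.29 ± 0.11 with the combination (adjusted p = 4e-11, quantile -1.09), and TRUB2, a pseudouridine synthase, by 2.23 ± 0.10 (adjusted p = 1.9e-11, quantile -0.95). MALSU1, a late large subunit assembly factor, went the other way relative to other genes, at 0.71 with MAPKi (adjusted p = 1.9e-05) and 0.39 with the combination (adjusted p = 0.0013) after quantile normalization, though with the combination it fell on the deposited scale by 0.91 ± 0.11 (adjusted p = 1.1e-06).

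Of 12 measured mitochondrial translation factors 11, 8 and 12 fell with MAPKi, HDACi and the combination, and after quantile normalization 1, 4 and 6 were lower and 3, 1 and 1 higher (medians 0.07, -0.10 and -0.29). TACO1, a translational activator of cytochrome c oxidase subunit I, fell by 1.61 ± 0.11 with HDACi (adjusted p = 1.3e-08, quantile -1.18) and by 2.43 ± 0.11 with the combination (adjusted p = 2.2e-11, quantile -1.22). GUF1, an elongation factor, fell by 2.05 ± 0.11 with the combination (adjusted p = 8.2e-11, quantile -0.81). MTRFR, a rescue factor, fell by 0.82 ± 0.11 with the combination (adjusted p = 5.4e-06), and was higher by 0.46 (adjusted p = 0.00023) after quantile normalization.

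Mitochondrial ribosomal proteins with other symbols were measured in 3 cases. DAP3, a GTP-binding small subunit protein linked to apoptosis, had changes of -1.15 ± 0.10 with MAPKi (adjusted p = 1e-07, quantile -0.34), -0.21 ± 0.10 with HDACi (adjusted p = 0.11, but higher by 0.20 with adjusted p = 0.033 after quantile normalization) and -1.33 ± 0.10 with the combination (adjusted p = 5e-09, quantile -0.03). PTCD3 fell by 1.75 ± 0.12 (adjusted p = 1.2e-09, quantile -0.48) and CHCHD1 by 1.26 ± 0.14 (adjusted p = 5.4e-07, quantile -0.68) with the combination. All 3 measured genes for transcription and replication of mitochondrial DNA also fell with it. They were POLRMT, the RNA polymerase (-1.32, adjusted p = 2.2e-08, quantile -0.35), TWNK, the helicase (-1.83, adjusted p = 7.3e-10, quantile -0.71), and the termination factor MTERF1 (-1.19, adjusted p = 3e-07, quantile -0.39), which was higher with MAPKi after quantile normalization (0.81, adjusted p = 0.00014). GATB and QRSL1, subunits of the mitochondrial glutaminyl-tRNA amidotransferase, fell by 1.95 ± 0.14 (adjusted p = 3e-09, quantile -1.22) and 1.93 ± 0.14 (adjusted p = 1.9e-09, quantile -0.76).

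Of 5 measured regulators known to act on nuclear genes for mitochondrial proteins, all fell with the combination on the deposited scale, and 3 were lower and 1 higher after quantile normalization. MYC fell by 1.63 ± 0.13 with MAPKi (adjusted p = 2.3e-08, quantile -0.91), and its HDACi change was -0.09 ± 0.13 (adjusted p = 0.61) on the deposited scale and 0.28 (adjusted p = 0.026) after quantile normalization. NRF1 fell by 0.54 ± 0.12 with the combination (adjusted p = 0.00051) but was 0.71 higher after quantile normalization (adjusted p = 8.3e-06). Whether any of these bears on the ribosomal protein genes was not tested.

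Cytosolic ribosomal protein genes did not show the same shift relative to other genes. All 41 fell with MAPKi, 28 with HDACi and 41 with the combination, at medians of -0.74, -0.32 and -1.06. After quantile normalization 2, 5 and 5 were lower and 2, 7 and 12 higher, at medians of -0.03, 0.02 and 0.06. The 17 nuclear genes with symbols of cytochrome c oxidase subunits, most of which assemble with products of the mitochondrial ribosome, had 13, 9 and 14 lower and 0, 2 and 2 higher on the deposited scale. This list was taken by symbol, so it includes COX7A2L and dim genes such as COX7B2 (3.41 with vehicle) and COX7A1 (4.64). The 2 higher genes were COX6B2 (5.3 with vehicle) and COX8C (3.2), whose mean levels over the 12 arrays lay above those of 39.3% and 10.3% of genes. After quantile normalization 0, 5 and 4 were lower and 1, 3 and 3 higher, at medians of -0.04, -0.04 and -0.07, against the -0.13, -0.42 and -0.45 of the mitochondrial ribosomal protein genes. These differences between lists are descriptions and were not tested.

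**Figure D4:**
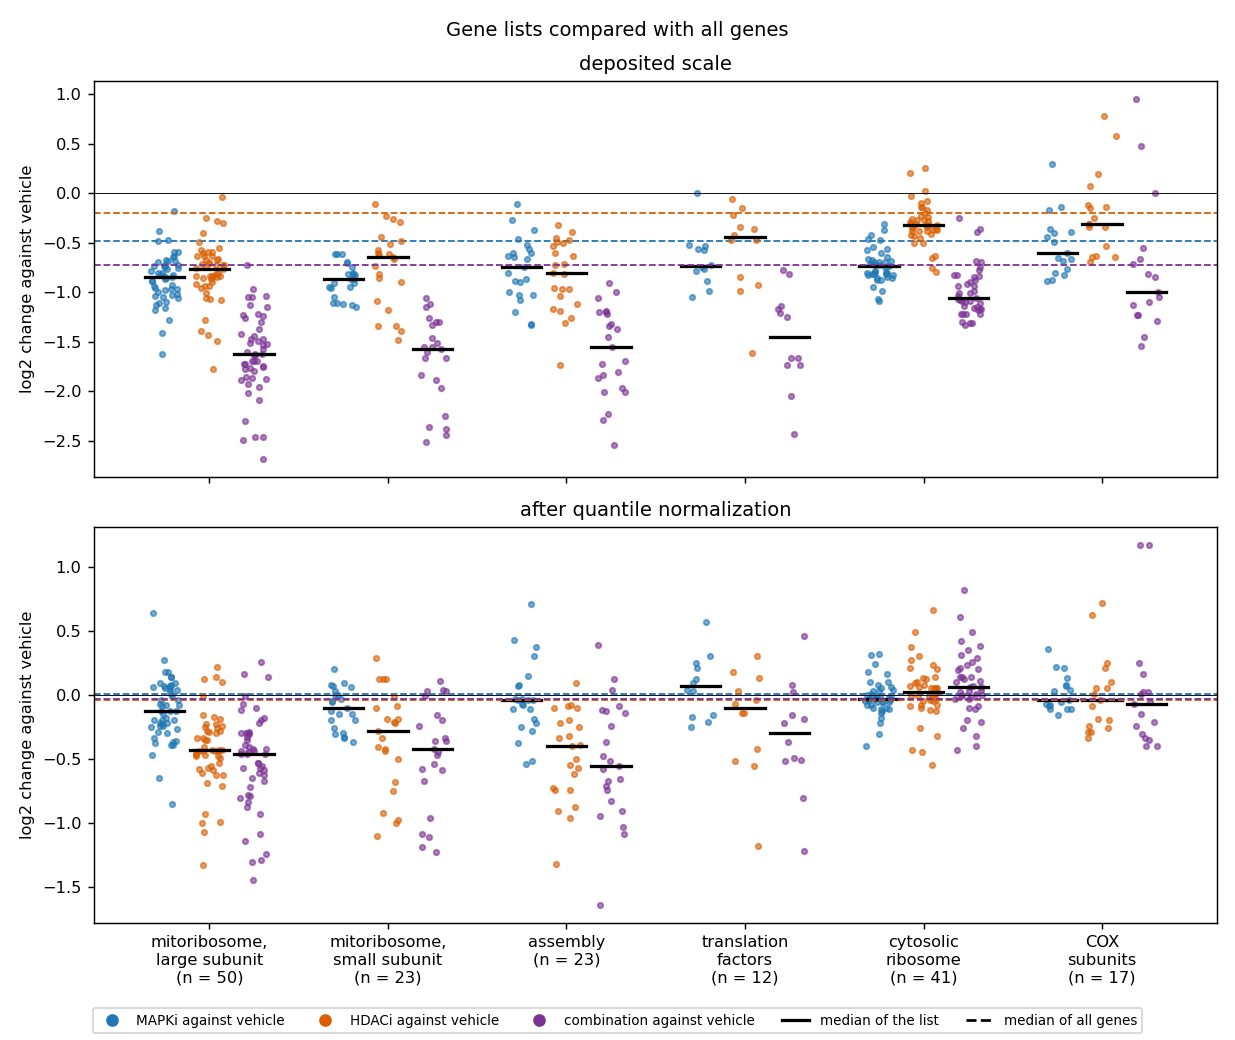
Log2 change against vehicle of each gene (points) and the list median (black bars) for the mitochondrial ribosomal protein genes and the other lists, 3 arrays per group, on the deposited scale and after quantile normalization. After quantile normalization the HDACi medians are -0.42 for the mitochondrial ribosomal protein genes and -0.40 for the assembly factors, but 0.02 for cytosolic ribosomal proteins and -0.04 for cytochrome c oxidase subunits.

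Some of the genes sit head to head with a neighbour. Of the 65 genes with a RefSeq promoter, 17 (26.2%) had the start of a protein-coding gene on the opposite strand within 1000 bases, against 1630 of 15842 protein-coding genes (10.3%). MRPL46 and MRPS11, whose starts lie 320 bases apart, are both mitochondrial ribosomal protein genes, and fell by 1.06 ± 0.11 (adjusted p = 9.1e-07, quantile -0.63) and 0.86 ± 0.11 (adjusted p = 1.1e-05, quantile -0.44) with HDACi. With the combination they fell by 1.87 ± 0.11 (adjusted p = 2.5e-10, quantile -0.61) and 1.66 ± 0.11 (adjusted p = 1.4e-09, quantile -0.36). In another pair, MRPL57 and SKA3, a spindle and kinetochore gene with its start 106 bases away, the changes were -0.75 and -2.27 with MAPKi (quantile 0.05 and -1.48). Their HDACi changes were -0.30 and -0.41 (quantile 0.12 and -0.01). MRPL27 and EME1, a DNA repair nuclease gene 45 bases away, had changes of -0.96 and -0.92 with HDACi (quantile -0.53 and -0.48). With MAPKi their changes were -0.94 and -1.93 (quantile -0.13 and -1.14), and with the combination -1.86 and -1.93 (quantile -0.63 and -0.75). No difference within a pair was tested.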

How the data were processed

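Expression was measured on 12 single-colour Affymetrix arrays. The deposited values are linear intensities, for which the submitters' processing notes name RMA and Transcriptome Analysis Console. Not given in the sources used here are the tool versions, the array annotation, the scaling between arrays and any use of the ERCC spike-in RNA, which was added ahead of extraction per the labels' protocols.

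A probe table gave 1 gene symbol to 14783 of the 29592 rows, several to 0, and none to 14809. Symbols were updated by gene ID with RefSeq (GRCh38.p14, names only), and the brightest row was kept for the 169 genes with more than 1 (among the ribosomal protein genes only MRPS2). Log2 values of the 12 arrays entered a single fit of 4 group means in limma (version 3.58.1, R version 4.3.3) by lmFit, contrasts.fit and eBayes, with 8 residual and 7.68 prior degrees of freedom. There were 6 comparisons with Benjamini-Hochberg adjustment over 14599 genes. Having 3 arrays per group limits the precision. On simulated data made from the vehicle means and within-group spreads of these genes, the fit was checked before use.

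The genes and lists were chosen with earlier results of these data known. Array values are given for the 4 most negative and 3 most positive changes in each comparison with vehicle, the 3 smallest adjusted p in the other comparisons, and genes picked by role or disease link, 25 in all. From each list, up to 4 genes with the smallest adjusted p with the combination, up to 2 of opposite sign and up to 2 that did not pass could be named. The cytochrome c oxidase list replaced one of complex I subunits after the gene names were seen, and SKA3, EME1 and the genes named by pattern after quantile normalization were chosen after their values were seen. MRPL20-AS1, MRPL23-AS1, MRPL42P5 and MRPL45P2 are not protein-coding and were left out. Alternatives were quantile normalization, subtraction of array medians, no dimmest 40% of genes, trend and robust variance, the mean of a gene's rows, only the arrays compared, a replicate block, and each array left out. Quantile normalization with the block was added after seeing the data. Plots used matplotlib 3.10.9 (Python 3.11.15). A promoter window of 1 further gene is not reported here.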

Additional observations from a re-analysis of the deposited data

Results flagged for a closer look

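After quantile normalization the interaction passed in limma for 5 of the 73 genes (2 lower and 3 higher, where 6.26% of all genes were lower and 6.21% higher). With the replicate block as well, 1 was lower and 3 were higher. It was 0.53 for MRPL15 (adjusted p = 0.013), 0.51 for MRPL51 (adjusted p = 0.034) and 0.47 for MRPS18A (adjusted p = 0.034), so the combination was less low than the added changes. It was -0.62 for MRPL16 (adjusted p = 0.0093) and -0.36 for MRPL30 (adjusted p = 0.047), where the combination was lower than the added changes. On the deposited scale none of the 5 passed, with adjusted p of 0.10, 0.12, 0.075, 0.083 and 0.11 in the same order.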

How the results depend on the processing

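Scaling between arrays decided the sizes and several counts. After quantile normalization 16 genes were lower and 1 higher with MAPKi (median -0.13), 2 were higher with HDACi (median -0.42), 1 was higher with the combination (median -0.45), 2 were higher in the combination against MAPKi (median -0.37) and 16 were lower against HDACi (median -0.08), and in the interaction 2 were lower and 3 higher. Quantile normalization with the replicate block gave 17 lower and 1 higher (-0.13), 2 higher (-0.42), 1 higher (-0.45), 45 lower and 2 higher (-0.37), 15 lower (-0.08), and 1 lower and 3 higher in the same order. With array medians subtracted the medians in that order were -0.31, -0.53, -0.82, -0.50 and -0.25, with 1 gene higher with MAPKi, 37 lower and 1 higher in the combination against HDACi, and 1 lower and 3 higher in the interaction. In the interaction 3 genes were lower and 2 higher without the dimmest 40% of genes, and 3 and 3 with trend and robust variance, settings without all-gene shares here.

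Signs turned under quantile normalization, alike with and without the block, with MAPKi for MRPL10 (0.03), MRPL16 (0.64), MRPL23 (0.08), MRPL43 (0.09), MRPL44 (0.18), MRPS22 (0.20) and MRPS30 (0.18), with HDACi for MRPL10 (0.22), MRPS25 (0.29) and MRPS31 (0.12), and with the combination for MRPL10 (0.26) and MRPS22 (0.03). With medians subtracted they turned for MRPL16 (0.37), MRPL23 (0.17) and MRPL43 (0.08) with MAPKi, MRPL10 (0.16) and MRPS25 (0.10) with HDACi, and MRPL10 (0.08) with the combination. Of the named genes' other values 1183 kept direction and call, 28 no longer passed and 17 newly passed.

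Leaving out each array in turn, the lower counts for MAPKi, HDACi and the combination against vehicle, then the combination against MAPKi and against HDACi, were 71 to 72, 64 to 69, 73 to 73, 67 to 70 and 71 to 72 (medians -0.92 to -0.81, -0.77 to -0.70, -1.67 to -1.58, -0.81 to -0.71 and -0.88 to -0.84). The interaction had 0 to 2 lower, from 2 without MAPKi replicate 3, and 0 to 1 higher, from 1 without vehicle replicate 2 or HDACi replicate 3. Arrays of the same number correlated at -0.11 to 0.12 after group means were removed (median 0.03), and those of other numbers at -0.12 to 0.07 (median -0.01). Of the 12 arrays 7 correlated best with their own number, and HDACi and combination arrays of the same number correlated at 0.09 to 0.12. The main fit did not use the numbers as a pairing. With the replicate block, in that order, 72, 67, 73, 70 and 72 genes were lower and 0 passed the interaction. With 3 arrays per group and no detection values, signal over background was not assessed here.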

Other observations

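Rows named after ribosomal protein genes without coding for protein did not all follow the coding genes. MRPL42P5, a transcribed pseudogene and dim, read 3.28, 3.51 and 3.36 with vehicle, 3.96, 3.81 and 3.76 with MAPKi, 4.38, 3.73 and 3.95 with HDACi, and 4.03, 3.92 and 3.79 with the combination. It rose by 0.46 ± 0.14 (adjusted p = 0.0092, quantile 0.57), 0.64 ± 0.14 (adjusted p = 0.0014, quantile 0.60) and 0.53 ± 0.14 (adjusted p = 0.0028, quantile 0.74). The antisense RNA MRPL20-AS1 read 6.64, 6.53 and 6.56 with vehicle, 6.38, 6.45 and 6.25 with MAPKi, 5.63, 5.78 and 5.94 with HDACi, and 5.51, 5.58 and 5.59 with the combination. It fell by 0.79 ± 0.10 with HDACi (adjusted p = 1.2e-05, quantile -0.56), and its MAPKi change was -0.22 ± 0.10 (adjusted p = 0.075), higher by 0.36 after quantile normalization (adjusted p = 0.0098).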
